A study of Saccharomyces cerevisiae with 2 samples.

Results

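The 10 genes described here encode enzymes of superoxide and peroxide defence in *Saccharomyces cerevisiae*, with a copper chaperone (*CCS1*) and a thioredoxin (*TRX2*) that serve them. They are *SOD1*, *SOD2*, *CCS1*, *CTT1*, *CTA1*, *CCP1*, *TSA1*, *PRX1*, *AHP1* and *TRX2*. They were chosen by gene symbol from the array annotation, and each had a single probe set, a group of short probes for 1 transcript. They are 10 of the 5656 genes that could be named and that had intensities above 0 on both arrays. RNA came from the *sdh3*Δ strain, in which the *SDH3* gene for a membrane subunit of succinate dehydrogenase was removed by allele replacement. Transformants were selected with *Kluyveromyces lactis URA3* as marker. The parent of the *sdh3*Δ strain is the uracil-requiring laboratory strain CENPK 113-5D, of mating type a and with the alleles *MAL2-8C*, *SUC2* and *URA3-52*. Cultures grew aerobically in batch on minimal medium with glucose, and uracil was added to meet the requirement of the deletion strain. They were sampled when 20 ± 2 g/liter of glucose remained. The deposited values are of 2 *sdh3*Δ arrays of total RNA, labelled as replicates. No source used here says whether they came from separate cultures, so the spread between them may be technical. The reference strain was not analysed here, so these values show levels in the mutant and the spread between its replicates, and give no effect of the deletion.

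Superoxide forms when electrons leak from the respiratory chain or other redox enzymes to oxygen. Superoxide dismutases turn it into hydrogen peroxide, with Sod2p working in the mitochondrial matrix and Sod1p mainly in the cytosol. The peroxide is then removed by catalases, by cytochrome *c* peroxidase, or by peroxiredoxins, which are reduced again by thioredoxin or glutathione at the expense of NADPH. In yeast the catalase genes are known to be low on glucose and to rise with respiratory growth, fatty acids or stress.

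*SDH3* itself had intensities of 22.0 in replicate 1 and 29.3 in replicate 2. Here a value is called above background when it exceeds the highest of 19 control probe sets for bacterial and mouse genes, which yeast lacks. This limit was 54.8 on the array of replicate 1 and 92.1 on that of replicate 2, so *SDH3* was not above background in either. All 19 of these control probe sets were brighter in replicate 2, with log2 ratios of replicate 2 over replicate 1 between 0.45 and 0.89 and a median of 0.67. Over the 5656 genes the median log2 ratio was -0.12 and its SD 0.73, and the log2 values of the arrays had a Pearson correlation of 0.90, a correlation across genes, which are not independent replicates. With 1 group of 2 arrays no difference between conditions could be tested. A difference between replicates is therefore set beside the SD of the log2 ratio within the same decile of mean level, 1 of 10 equal groups of genes, and no p-value is given. Another setting, added after the values were seen, subtracted the median of these control probe sets from each array. Here the move of each log2 ratio was set beside the SD of that gene's own 2 log2 values. This SD grows with the gene's own difference and is not the SD of its decile. Of the 8 defence genes above background, 7 moved by less than it, and *PRX1* moved by more.

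Of the 10 defence genes, 8 were above background in both replicates, against 40% of all genes. The exceptions were both catalase genes. The plot of intensities shows the value of every gene in each replicate.

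**Figure D1:**
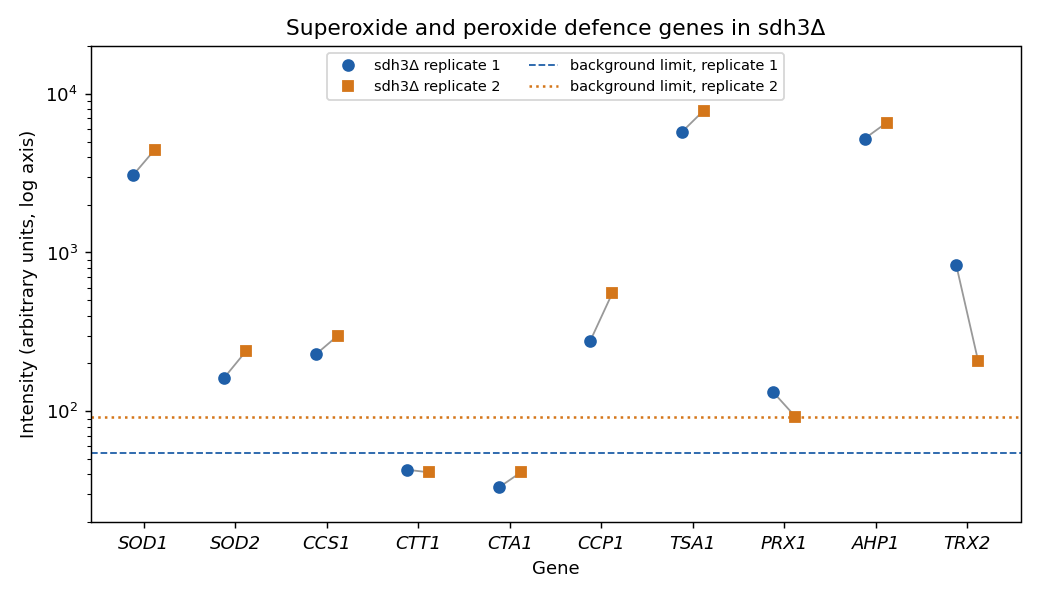
Intensity of the 10 superoxide and peroxide defence genes on a log axis in *sdh3*Δ replicate 1 (circles) and replicate 2 (squares), joined for each gene. The lines mark the background limit of each array, 54.8 and 92.1; *CTT1* and *CTA1* lie below both lines, and *TRX2* is the gene whose replicates lie farthest apart.

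The genes of superoxide removal were all above background, and all 3 were brighter in replicate 2. *SOD1* (YJR104C), which encodes the copper and zinc superoxide dismutase of the cytosol and the intermembrane space, had intensities of 3057 and 4444 in replicates 1 and 2. Its mean was 3750 ± 980 (SD, n = 2), and the replicates differed by 1.45-fold. *SOD2* (YHR008C), for the manganese enzyme of the mitochondrial matrix, had 163 and 240, a mean of 202 ± 54.7 (SD, n = 2). That is a 1.47-fold difference, close to the one seen for *SOD1*. *CCS1* (YMR038C), which encodes the chaperone that delivers copper to Sod1p, had 228 and 299, a mean of 264 ± 50.4 (SD, n = 2). The log2 ratios of the 3 genes lay between 0.39 and 0.56, while the SD among genes of similar level was 0.86 for *SOD1* and *SOD2* and 0.91 for *CCS1*. None of these differences thus exceeded the usual spread between the arrays.

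The catalase genes gave only upper bounds. *CTT1* (YGR088W), for the cytosolic catalase T that is induced by stress, had intensities of 42.8 and 41.2. *CTA1* (YDR256C), for catalase A of peroxisomes and the mitochondrial matrix, had 33.1 and 41.2. All 4 values were below the limit of their array, and no fold difference is given for either gene. Their transcripts were thus not detectable over the controls in cells with glucose left, which does not show that they were absent.

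*CCP1* (YKR066C) encodes cytochrome *c* peroxidase, a heme enzyme of the intermembrane space that reduces hydrogen peroxide with electrons from cytochrome *c*. It was well above background in both replicates, at 278 and 554, with a mean of 416 ± 195 (SD, n = 2). The log2 ratio of 0.995 was the highest among the 10 genes and lay just under 2-fold, at 1.99-fold. Among genes of similar level the median was 0.20 with an SD of 0.91, and *CCP1* stood at percentile 87.3. With the median log2 ratio of all genes set to 0, or after quantile normalization, it passed 2-fold, with log2 ratios of 1.12 and 1.07.

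The peroxiredoxin genes, whose products reduce peroxides through reactive cysteines, differed between replicates by 1.26-fold to 1.42-fold, in both directions. *TSA1* (YML028W), for the major cytosolic peroxiredoxin, had intensities of 5736 and 7838, a mean of 6787 ± 1486 (SD, n = 2). *AHP1* (YLR109W), which encodes a cytosolic enzyme that prefers alkyl hydroperoxides, had 5223 and 6577, a mean of 5900 ± 958 (SD, n = 2). In both genes replicate 2 was the brighter, by 1.37-fold and 1.26-fold, and their log2 ratios of 0.45 and 0.33 were below the SD of 0.86 for their level and close to its median of 0.39. *PRX1* (YBL064C), for the peroxiredoxin of the mitochondrial matrix, went the other way, from 132 in replicate 1 to 92.7 in replicate 2. Its mean was 112 ± 27.6 (SD, n = 2), and in replicate 2 it stood barely over the limit of 92.1. With the median of the control probe sets subtracted, its log2 ratio moved from -0.51 to -1.16.

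*TRX2* (YGR209C), which encodes one of the paired cytosolic thioredoxins that reduce Tsa1p and Ahp1p, stood apart from the other genes. Its intensity was 832 in replicate 1 and 206 in replicate 2, a mean of 519 ± 443 (SD, n = 2). Replicate 1 was thus 4.03-fold brighter. The log2 ratio of -2.01 lay farther from the median of 0.20 among genes of similar level than their SD of 0.91, and after subtraction of the control median it was -2.33. Of the 566 genes in that decile, 3.18% had a ratio as low or lower. Both values were above background. The thioredoxin genes *TRX1* and *TRX2* are paralogs, and whether RNA from either binds probes for the other was not tested. *TRX1*, described below, had a log2 ratio in the same direction.

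Thus 1 of the 10 genes, *TRX2*, differed by more than 2-fold between replicates, against 16.7% of all genes. Of the 8 above background, 6 were brighter in replicate 2 and 2 were dimmer, and 63.5% of all genes above background were brighter there. Without this filter 44.1% of all genes were brighter in replicate 2. The limit was higher in replicate 2, so the filter leaves out more of the genes that are dim there. The ratio depended on level: its median was -0.25 in decile 2, which holds the catalase genes, 0.20 in decile 9 with *CCS1*, *CCP1* and *TRX2*, and 0.39 in decile 10 with *SOD1*, *TSA1* and *AHP1*. The median over the 8 genes was 0.42, against 0.24 over the 2260 genes above background in both replicates. With the catalase genes at their values as given it was 0.36, against -0.12 over all genes. The 8 genes kept their direction with the median of all genes set to 0 and under quantile normalization.

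**Figure D2:**
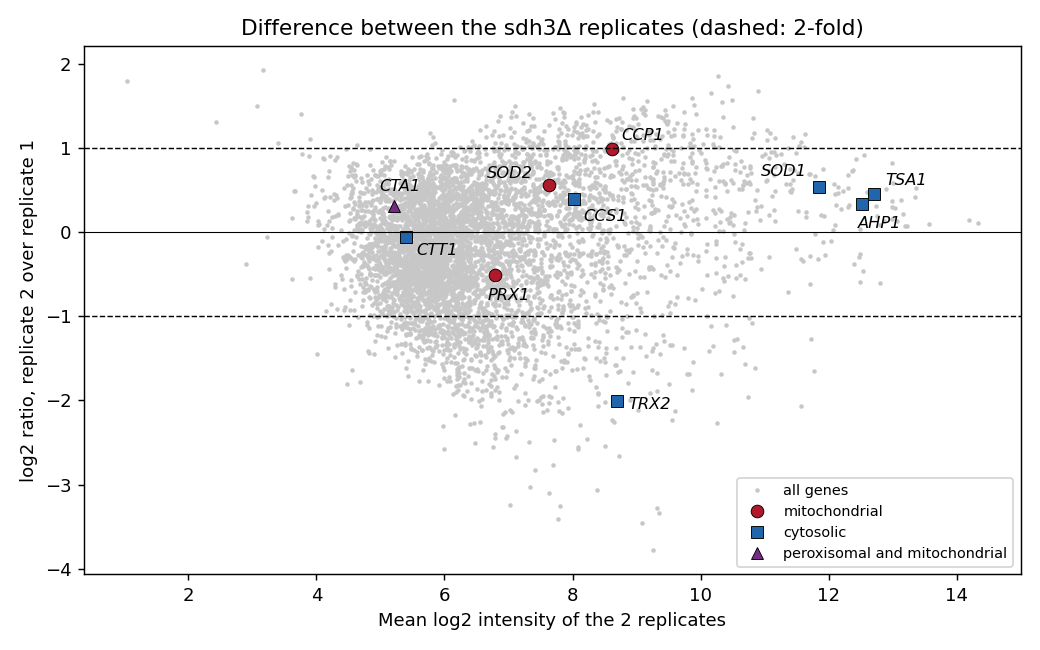
The log2 ratio of *sdh3*Δ replicate 2 over replicate 1 against the mean log2 intensity of the replicates, for all 5656 genes (grey points) and the 10 defence genes by location of the protein (coloured symbols). The dashed lines mark 2-fold; *TRX2* at -2.01 lies beyond the lower line and *CCP1* at 0.995 just inside the upper line.

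Genes for mitochondrial and for cytosolic proteins overlapped in these ratios. The 3 genes for mitochondrial enzymes, *SOD2*, *CCP1* and *PRX1*, had log2 ratios from -0.51 to 0.995 with a median of 0.56. Of the 6 cytosolic ones, *CTT1* was not above background. For the other 5, *SOD1*, *CCS1*, *TSA1*, *AHP1* and *TRX2*, the ratios ran from -2.01 to 0.54 with a median of 0.39, and with *CTT1* as given the median was 0.36. *CTA1*, whose product is found in peroxisomes and mitochondria, was placed in neither class. Intensities of different probe sets depend on their probes, so the levels of the classes were not compared.

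Oxidant defence was described further with 36 genes in 6 lists, all measured. The lists were chosen with earlier results of these data known, and they do not hold every gene of these systems. The counts below therefore hold for the listed genes and not for the whole pathway. Of the 36 genes, 20 were above background in both replicates, where 40% of all genes were. Of the 36, 12 differed by more than 2-fold between replicates, which is 33.3% against 16.7% of all genes. Of the 36 genes, 10 were over 2-fold dimmer in replicate 2, against 12.6% of all genes. Another 2 were over 2-fold brighter, against 4.17% of all genes. Of all 946 genes past 2-fold, 710 were dimmer in replicate 2. Of the 12, 7 were above background in both replicates, 5 of them dimmer in replicate 2 and 2 brighter, and of all genes above background 19.4% differed by this much. The other 5, all dimmer in replicate 2, were not above background there, and 2 of them still passed 2-fold when values were raised to the limit. The median log2 ratio of the 36 genes was -0.30 on the values as given, against -0.12 over all genes. Over the 20 above background it was 0.05, and 10 of them were brighter and 10 dimmer in replicate 2. Over all genes above background in both replicates the median was 0.24, and 63.5% were brighter. Without the filter 24 of the 36 genes were dimmer and 12 brighter, and 44.1% of all genes were brighter. The higher limit of replicate 2 leaves out genes that are dim there, so the even split depends partly on the filter. The count of 20 takes the mean of a gene's probe sets. *GRX5*, for a mitochondrial glutaredoxin, has a probe set at 386 and 210 and another at 27.3 and 26.1, and is added when any probe set may pass, which gives 21. The probe sets of *ALD6*, for an aldehyde dehydrogenase, also disagreed, at 1425 and 1776 and at 41.6 and 62.4.

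Among further peroxidase genes, 2 of 5 were above background in both replicates, against 40% of all genes. Both were brighter in replicate 2, as were *TSA1* and *AHP1* but not *PRX1*, and as 63.5% of all genes above background were. *HYR1*, for the peroxidase that senses hydrogen peroxide for Yap1p, had intensities of 476 and 1083, a 2.28-fold difference. *DOT5*, for a nuclear peroxiredoxin, had 187 and 350. *TSA2*, the paralog of *TSA1*, was near background at 57.2 and 86.9 and above the limit in replicate 1 alone. Whether RNA of *TSA1* binds the *TSA2* probes was not tested, so these values are uncertain. The glutathione peroxidase genes *GPX1* and *GPX2* were not above background in either replicate.

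Several genes for the thiol donors, which return electrons to the peroxidases, were dimmer in replicate 2, as *TRX2* was. In the list of further thioredoxin genes, 2 of the 3 above background in both replicates were over 2-fold dimmer. Of all 2260 genes above background in both, 216 were. *TRX1*, for the other cytosolic thioredoxin, had intensities of 1351 and 388, and *TRR1*, for the cytosolic thioredoxin reductase, had 663 and 204. These are differences of 3.48-fold and 3.25-fold. The mitochondrial reductase gene *TRR2*, at 95.4 and 120, went the other way by 1.26-fold. The mitochondrial thioredoxin gene *TRX3* had 94.0 and 53.6, the second not above background.

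In the glutathione list, which leaves out other genes of that system, the 3 genes above background in both replicates had log2 ratios of -1.38, -1.09 and near 0. Thus 2 were over 2-fold dimmer in replicate 2, against 216 of all 2260 genes above background. Another 3 had values as given that were over 2-fold apart, and for 2 of these the bound was below 2-fold. On the values as given 5 of the 8 genes were over 2-fold dimmer, against 12.6% of all genes. *GRX1*, which encodes a cytosolic glutaredoxin, had intensities of 596 and 229, a 2.61-fold difference, and *GLR1*, for glutathione reductase, had 397 and 187, one of 2.13-fold. *GSH1* and *GSH2*, for the enzymes of glutathione synthesis, had 204 and 145 in replicate 1. In replicate 2 both were not above background, at 77.0 and 50.5, so that replicate 1 was at least 2.22-fold and at least 1.57-fold brighter. *GRX4*, for a glutaredoxin that regulates iron use, had 146 and 58.1 and was at least 1.58-fold brighter in replicate 1. *GRX2*, at 382 in both replicates, did not differ, and turned to a slightly positive ratio after quantile normalization or centring. Each of these settings gave 4 genes of the list over 2-fold dimmer in replicate 2 on the values as given, against 5 without them. Of all 5656 genes, 619 were over 2-fold dimmer after quantile normalization and 562 after centring, against 710 without them.

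**Figure D3:**
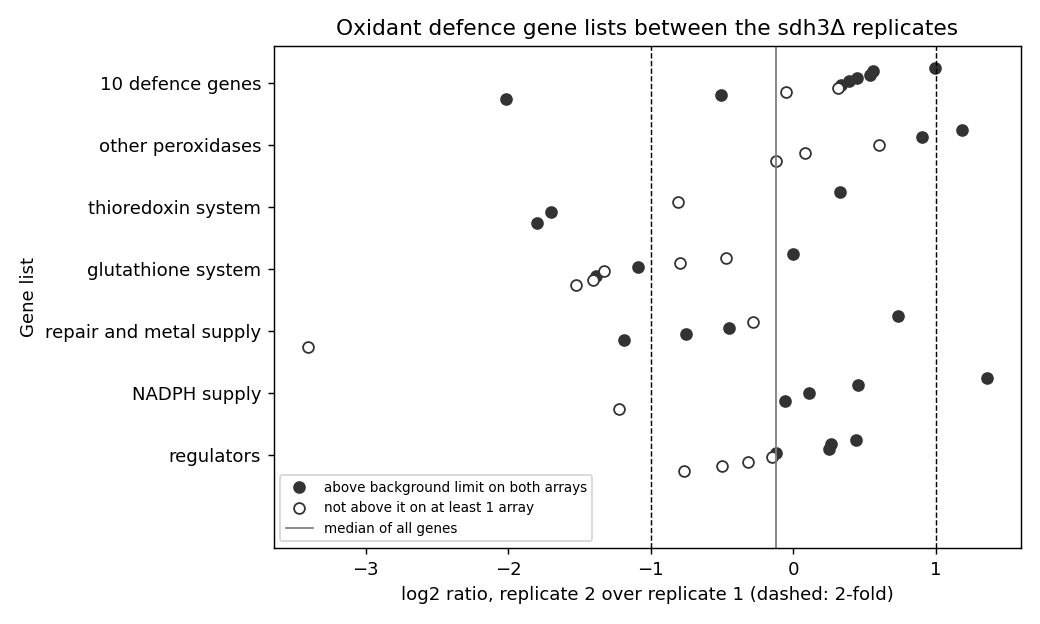
The log2 ratio of *sdh3*Δ replicate 2 over replicate 1 for the 10 defence genes and the 36 further genes by list, with filled symbols for genes above background in both replicates and open ones for the others. Open symbols stand at the ratio of the values as given, which is no measured difference; the dashed lines mark 2-fold and the grey line the median of all genes at -0.12, with *TRX1* and *TRR1* at -1.80 and -1.70 among the filled symbols farthest to the left.

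Among genes of repair and metal supply, 2 of 6 differed by over 2-fold, against 16.7% of all genes. *ATX1*, for a small cytosolic copper chaperone, had intensities of 715 and 67.5 and was at least 7.77-fold brighter in replicate 1. By contrast *CCS1*, the copper chaperone for Sod1p, had differed by 1.31-fold in the other direction. *MXR1*, for a methionine sulfoxide reductase, had 245 and 108. *SRX1*, for the sulfiredoxin that repairs overoxidized Tsa1p, was brighter in replicate 2, at 68.0 and 113. *MTM1*, for a mitochondrial carrier protein needed for active Sod2p, had 205 and 122. *SOD2* itself was the brighter in replicate 2.

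Genes that supply NADPH went both ways. *ZWF1*, for glucose-6-phosphate dehydrogenase, had intensities of 1134 and 2903 and was 2.56-fold brighter in replicate 2, and *GND1*, for the next NADPH-forming enzyme of the pentose phosphate pathway, had 1588 and 1711. *POS5*, for the mitochondrial NADH kinase, was dimmer in replicate 2, from 158 to a value of 67.7 that was not above background, a difference of at least 1.72-fold. Of the 8 regulators none was past 2-fold, against 16.7% of all genes, and 4 were above background in both replicates, against 40%. *YAP1*, the activator of *TRX2* and *TRR1* under oxidative stress, had intensities of 74.5 and 43.8 and was above background in replicate 1 alone. *SKN7*, which acts with Yap1p, had 151 and 179, and the stress activator *MSN2* had 144 and 196.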

How the data were processed

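Total RNA of 2 *sdh3*Δ samples was hybridized to Yeast Genome S98 arrays. Each array has 1 deposited linear intensity for each of 9335 probe sets. The authors applied a global scaling in Microarray Suite (MAS5, version 5 per the submitters' processing notes), followed by normalization and the Perfect Match model in dChip. Genes were named through the array annotation for 6504 probe sets with 1 gene, all found in the R64 gene table, which served for names only. Another 328 probe sets have several genes, 60 are controls and 2443 are unnamed here. Probe sets without positive values on both arrays (11) were excluded. Where a gene had several plain probe sets, their log2 values were averaged. Other kinds stood in only where no plain one existed.

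The difference between replicates was the log2 ratio per gene, described without a test because the samples form 1 group. Genes were split into 10 equal groups by mean log2 value, and the limit for a difference was 2-fold. The number of arrays limits the precision. The calculation was tested on simulated data. The genes and lists were chosen with earlier results of these data known. The text names *SDH3*, the 10 genes, every gene of the further lists past 2-fold, and the 4 highest and 4 lowest ratios among those above background in both replicates. The others named (*GRX5*, *ALD6*, *TSA2*, *GPX1*, *GPX2*, *TRX3*, *TRR2*, *GRX2*, *MTM1*, *GND1*, *YAP1*, *SKN7* and *MSN2*) were picked for their role after their values were seen. Promoter motifs and protein sequences were not analysed here. Python 3.11.15, numpy 2.4.6, pandas 2.3.3 and matplotlib 3.10.9 were used.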

Additional observations from a re-analysis of the deposited data

How the results depend on the processing

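The count of defence genes past 2-fold between replicates was 1 of 10 on the values as deposited, against 16.7% of all genes. It became 2 after quantile normalization, against 16.8% of all genes, and 2 with the median log2 ratio of all genes set to 0, against 16.6%. In both cases *CCP1*, at 1.99-fold on the values as deposited, was the gene added. With a 1.5-fold limit the count was also 2, while the share of all genes went to 41.4%. With the control median subtracted, an alternative added after the values were seen, it was 3 of the 8 genes above background. These were *TRX2*, *CCP1* and *PRX1*, and the share of all genes above background was 28.1%. Moving the median log2 ratio of all genes from -0.12 to 0 brought the share of brighter genes in replicate 2 among all genes past 2-fold from 24.9% to 40.0%. The count above background stayed at 8 with either replicate left out and with the limit at the median of the control probe sets. The share of all genes above background was not computed for these settings, so the unchanged count has no background to be read against. Counting a gene as above background by any of its probe sets, also added later, left 8 defence genes and gave 21 further genes in place of 20. By that rule 40.7% of all genes were above background. The median log2 ratio of the defence genes lay between 0.28 and 0.49 over all alternatives run on it. The alternatives limited to genes above background left out *CTT1* and *CTA1*. No paired analysis was possible because there is only 1 group. Low signal limits *CTT1*, *CTA1* and *PRX1*.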
